A study of Callithrix jacchus with 3 samples.

Results

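The genes described here encode proteins that are known targets of small molecules used in published media for extended pluripotent stem cells. The list held 10 genes, and 8 of them were matched by symbol to a row among the 30811 Ensembl genes counted. These were GSK3A (ENSCJAG00000012791), GSK3B (ENSCJAG00000008783), TNKS (ENSCJAG00000012143), TNKS2 (ENSCJAG00000008230), PARP1 (ENSCJAG00000012831), SRC (ENSCJAG00000021512), MAPK8 (ENSCJAG00000013551) and MAPK9 (ENSCJAG00000010293). HRH1, the histamine receptor gene, and MAPK14, which encodes the p38 alpha kinase, had no match and are not analysed here. The genes were chosen as known targets of the compounds and not by their values, though with earlier results of these data known.

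RNA sequencing had been run on 3 libraries of common marmoset (Callithrix jacchus) cells that the submitters describe as like extended pluripotent stem cells. Per the title of the study, they come from attempts to derive such cells from marmoset embryonic stem cells. All 3 libraries form 1 group, with no parental, untreated or other reference cells. The 3 sample titles share the label No40, whose meaning is not given, and differ in their replicate number. The sources used here do not give the culture medium, the passage or whether the libraries are separate cultures, so they do not tell whether these cells met any of the compounds. What can be asked of such data is at what level the target genes were present as RNA, and how far that level varied between libraries.

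Extended-pluripotency media are built around kinase and enzyme inhibitors. GSK3 inhibitors keep beta-catenin from being marked for destruction, and tankyrase inhibitors keep the scaffold protein AXIN from being degraded, so both act on the Wnt pathway. Inhibitors of SRC, p38 and JNK kinases are used in one published medium, and dimethindene, an antagonist of the histamine receptor HRH1, with minocycline, described there as a PARP1 inhibitor, in another. Such compounds act on proteins, and the RNA level of a target does not measure its activity or its inhibition.

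Total counts were 52327369, 55224475 and 40593244 in replicates 1, 2 and 3. Replicate 3 stood apart. Over the 8722 genes with at least the mean count of SRC, the lowest of the target genes at 636 counts, log2 ratios of replicate 2 over 1 had an SD of 0.0796, and those of replicate 3 over replicates 1 and 2 had SDs of 0.414 and 0.419. Since the labels do not tell separate cultures from repeats of 1 culture, the p-values speak for these libraries alone, and their spread may be technical. Of the fixed pluripotency markers, 10 of 10 matched genes were called above 1 CPM (counts per 1000000 counts, TMM-scaled). The share over all genes tested was 56.0%. These 10 markers summed to 7326, 7564 and 7068 CPM in replicates 1, 2 and 3. The median of these 10 was 9.42, 9.51 and 8.66 log2 CPM, so the nearly level sums do not hold for each marker. By the library test given below, 5 of the 10 were lower and 4 higher in replicate 3 than in replicate 1. The shares were 26.0% and 22.3% of all genes, and 44.5% and 35.8% of those of at least SRC's depth. With a 1.5-fold difference required, 3 markers were lower and 0 higher (10.6% and 6.83% of all genes). Replicates 1 and 2 differed in these markers too. In replicate 2, 7 of the 10 were higher and 0 lower than in replicate 1 (4.11% and 3.51% of all genes). Of the 10, 5 were still higher when all counts were halved, and 0 with a 1.5-fold difference required. Markers of other cell types had lower sums. For their calls, the shares over all genes tested were 56.0% above 1 CPM and 37.8% below. Every list summed lowest in replicate 3, and those of trophoblast and endoderm were the lowest there relative to replicates 1 and 2. The 6 matched trophoblast markers summed to 29.7, 30.7 and 13.0 CPM, with 3 called above 1 CPM, CYP19A1 at 0 counts throughout and CDX2 and TP63 at 0 counts in replicate 3. The 5 matched endoderm markers summed to 21.4, 23.7 and 8.19 CPM, with 3 called above and AFP at 0 counts throughout. The 11 matched mesenchyme and fibroblast markers summed to 842, 788 and 583 CPM, with 10 called above and none at 0 counts. Of these 11, 5 were lower and 0 higher in replicate 2 than in replicate 1 (3.51% and 4.11% of all genes). With 1.5-fold required, 1 was lower. The 7 neuroectoderm markers summed to 461, 453 and 427 CPM, with 4 called above, 2 below and 1 at 0 counts throughout. Neuroectoderm markers at 0 counts numbered 2, 1 and 3 in replicates 1, 2 and 3. The 7 blood and endothelium markers summed to 125, 131 and 76.2 CPM, with 4 called above, 2 below and PTPRC at 0 counts in replicate 3. The part of these markers in the library differences below was not tested. In RNA from bulk cells, fewer cells of a type and less RNA per cell cannot be told apart.

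All 8 matched target genes were present at levels well over 1 CPM. Each was called above that level (F statistic of edgeR's quasi-likelihood fit, with Benjamini-Hochberg adjustment over 23432 genes), as were 56.0% of all genes tested. All 8 were also called above 5 CPM, as were 44.5% of all genes. Their median was 6.21 ± 0.27 on the log2 CPM scale, against 1.68 ± 0.07 for all genes tested (SD over libraries, n = 3). CPM is not corrected for gene length and no transcript lengths were used, so the levels of different genes are not ranked against each other here.

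**Figure D1:**
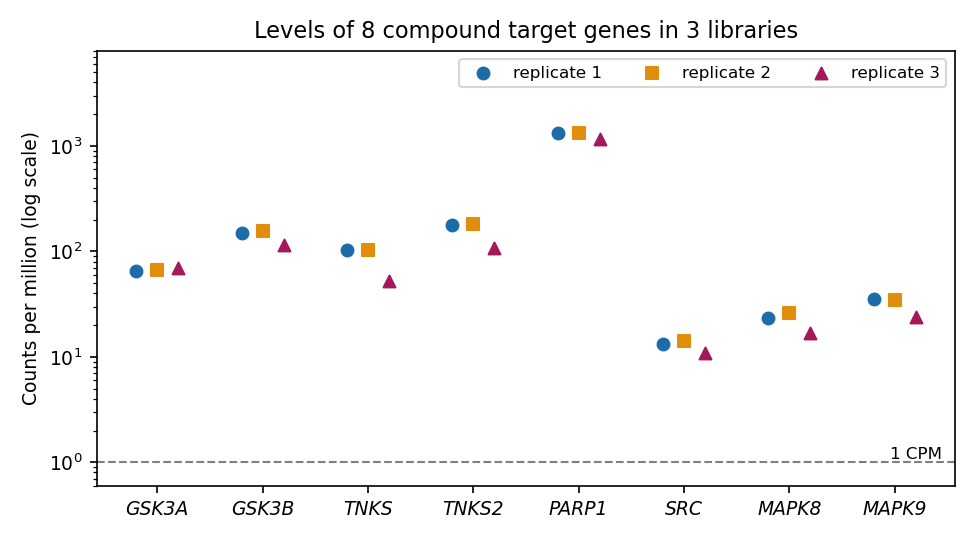
Level of each target gene in each library, in CPM on a log axis; points are single libraries, and the dashed line marks 1 CPM. All points lie over 10 CPM, and the triangle of replicate 3 is the lowest of its gene for 7 of the 8 genes, the exception being GSK3A.

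The GSK3 kinases phosphorylate beta-catenin within the destruction complex and are the targets of the GSK3 inhibitors. GSK3A stood at 65.3, 66.5 and 68.9 CPM in replicates 1, 2 and 3, a mean of 66.9 ± 1.83 CPM (SD, n = 3). The libraries were nearly level, and its coefficient of variation of 2.74% was at percentile 8.59 of the 8722 genes of at least SRC's depth. Its fitted level was 6.06 on the log2 scale (adjusted p = 1.50e-12, edgeR quasi-likelihood), and 6.04 without replicate 3. GSK3B stood at 149, 156 and 116 CPM, a mean of 140 ± 21.5 CPM (SD, n = 3). It was lowest in replicate 3, and its fitted level was 7.13 (adjusted p = 9.34e-13, edgeR), against 7.25 without that library.

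The tankyrases add poly(ADP-ribose) to AXIN, which leads to its degradation, and are the targets of tankyrase inhibitors. TNKS stood at 102, 104 and 52.0 CPM in replicates 1, 2 and 3, a mean of 86.0 ± 29.4 CPM (SD, n = 3). Replicates 1 and 2 were close together and replicate 3 was far under both. TNKS2 stood at 178, 182 and 109 CPM, a mean of 156 ± 41.2 CPM (SD, n = 3), with the same library apart. The coefficients of variation were 34.3% for TNKS and 26.4% for TNKS2, at percentiles 96.5 and 90.9 of genes of at least SRC's depth. Fitted log2 levels were 6.43 for TNKS and 7.29 for TNKS2 (adjusted p = 9.75e-11 and 4.56e-12, edgeR), and 6.68 and 7.49 without replicate 3.

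PARP1 encodes the main nuclear poly(ADP-ribose) polymerase, which is activated by DNA breaks. It stood at 1323, 1330 and 1153 CPM in replicates 1, 2 and 3, a mean of 1269 ± 100.4 CPM (SD, n = 3), and rested on 69201, 73140 and 47002 counts. Replicate 3 was again the lowest, by a small margin, with a coefficient of variation of 7.91%. The fitted level was 10.31 (adjusted p = 3.34e-15, edgeR), and 10.37 without replicate 3.

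SRC, the founding member of a family of membrane-bound tyrosine kinases, had the fewest counts, with 689, 773 and 447. It stood at 13.2, 14.1 and 11.0 CPM in replicates 1, 2 and 3, a mean of 12.7 ± 1.59 CPM (SD, n = 3). The fitted log2 level was 3.67 (adjusted p = 2.93e-09, edgeR), and 3.76 without replicate 3. The JNK kinases, encoded by MAPK8 and MAPK9, relay stress signals to the transcription factor JUN. MAPK8 stood at 23.3, 26.2 and 16.9 CPM, a mean of 22.2 ± 4.76 CPM, and MAPK9 at 35.3, 34.4 and 24.1 CPM, a mean of 31.3 ± 6.20 CPM (SD, n = 3 each). Both were lowest in replicate 3. Their fitted log2 levels were 4.47 and 4.97 (adjusted p = 1.02e-09 and 2.21e-10, edgeR), and 4.63 and 5.12 without that library.

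Library to library, 7 of the 8 genes had a lower CPM in replicate 3 than in replicate 1, and the same 7 genes also a lower one than in replicate 2 (exact conditional binomial test, two-sided, Benjamini-Hochberg adjusted over all genes). The test compares the reads of 2 libraries and no conditions, and takes no account of variation between cultures. Of all genes tested, 26.0% fell short of replicate 1 in replicate 3, and 26.4% fell short of replicate 2. Among the 8722 genes of at least SRC's depth, where the test can resolve smaller differences, these shares were 44.5% and 45.5%, and 42.2% were lower than in both. None of the 8 was called higher in replicate 3 than in replicate 1 or 2, though the CPM of GSK3A was highest there. The shares called higher were 22.3% and 22.8% of all genes, and 35.8% and 35.5% of those of at least SRC's depth. With size factors of DESeq2 or total counts alone in place of TMM, the split against replicate 1 was 7 lower and 1 higher, as GSK3A then passed (log2 ratio 0.09 and 0.08, adjusted p = 0.0236 and 0.0463, exact conditional binomial test). Where calls also had to reach a difference of 1.5-fold, 2 of 8 were lower than in replicate 1 and 3 of 8 lower than in replicate 2, against 10.6% and 10.8% of all genes, and 10.9% and 11.6% of those of at least SRC's depth.

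The largest difference was in TNKS, whose log2 ratio of replicate 3 over replicate 1 was −0.98 (95% interval −1.05 to −0.90), a ratio of 0.509. That over replicate 2 was −1.00 (−1.07 to −0.92). TNKS lay at percentiles 2.94 and 2.76 of the ratios of the 8722 genes. TNKS2 followed, with −0.72 (−0.77 to −0.66) over replicate 1 and −0.74 (−0.79 to −0.69) over replicate 2, at percentiles 7.17 and 6.76. The tankyrase genes had the largest differences from replicate 1 and from replicate 2 among the 8.

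MAPK9 had a log2 ratio of −0.55 (−0.66 to −0.43) over replicate 1, and MAPK8 one of −0.46 (−0.60 to −0.33). Over replicate 2 they were −0.51 (−0.63 to −0.40) and −0.63 (−0.76 to −0.50). GSK3B stood at −0.37 (−0.42 to −0.31) and −0.43 (−0.48 to −0.38) over replicates 1 and 2. SRC, with the widest intervals, had −0.26 (−0.44 to −0.09) and −0.36 (−0.53 to −0.19), and its call against replicate 1 was lost when counts were halved, as if both mates of each pair had been counted (adjusted p = 0.0894, exact conditional binomial test). PARP1 had −0.20 (−0.22 to −0.18) and −0.21 (−0.22 to −0.19). GSK3A had 0.08 (0.0049 to 0.15) and 0.05 (−0.02 to 0.12), with adjusted p = 0.0702 and 0.254 by the exact conditional binomial test. All intervals cover counting error only and are not adjusted for the number of genes. The reads carry no molecular identifiers, so the true counting error may be larger.

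**Figure D2:**
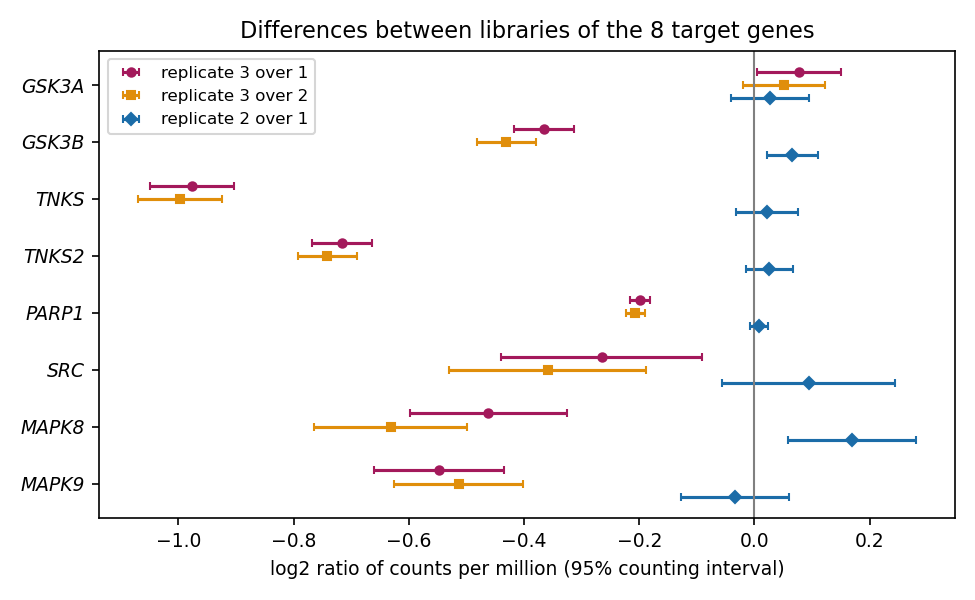
Log2 ratio of CPM between each pair of libraries for the 8 target genes, with 95% intervals from counting error. Ratios of replicate 3 over 1 and 3 over 2 lie left of 0 for 7 genes, down to −1.00 for TNKS over replicate 2, while those of replicate 2 over 1 lie between −0.03 and 0.17.

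Between replicates 2 and 1, 2 of the 8 genes were called different, both higher in replicate 2, as were 4.11% of all genes. None of the 8 was called lower, against 3.51% of all genes. The 2 called genes were MAPK8, with a log2 ratio of 0.17 (95% interval 0.06 to 0.28, adjusted p = 0.0399), and GSK3B, with 0.07 (0.02 to 0.11, adjusted p = 0.0494, exact conditional binomial test). Both were lost with halved counts, and that of GSK3B also with total counts. The median log2 ratio of the 8722 genes was −0.04, −0.05 and 0.00 for replicate 3 over 1, 3 over 2 and 2 over 1.

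Paralogs that share an inhibitor did not always move by the same amount. Since no lengths were used, the ratio of paralogs within a library is not given, but its change between libraries does not depend on length or on scaling. It was tested by Fisher's exact test on the counts, with adjustment over 9 tests, a test chosen after seeing the data. The p-values and intervals of this test cover counting error only. Log2 ratios of single genes of at least SRC's depth had SDs of 0.414 and 0.419 for replicate 3 over 1 and over 2. Other gene pairs were not compared, so whether shifts of the sizes below are unusual was not tested. GSK3A gained on GSK3B in replicate 3, by 0.44 log2 units over replicate 1 (95% interval 0.35 to 0.53, adjusted p = 9.93e-22) and by 0.48 over replicate 2 (0.39 to 0.57, adjusted p = 4.72e-26). Between replicates 2 and 1 the change was −0.04 (−0.12 to 0.04, adjusted p = 0.391). TNKS2 gained on TNKS in replicate 3 as well, by 0.26 (0.17 to 0.35) over both replicates 1 and 2 (adjusted p = 2.69e-08 for each, Fisher's exact test), TNKS being the one that was further down. For MAPK9 against MAPK8 the change was −0.09 (−0.26 to 0.09) over replicate 1 and 0.12 (−0.06 to 0.29) over replicate 2 (adjusted p = 0.391 and 0.274, Fisher's exact test). Their ratio did change between replicates 2 and 1, by −0.20 (−0.35 to −0.06, adjusted p = 0.0102), a call lost with halved counts (adjusted p = 0.0947, Fisher's exact test).

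**Figure D3:**
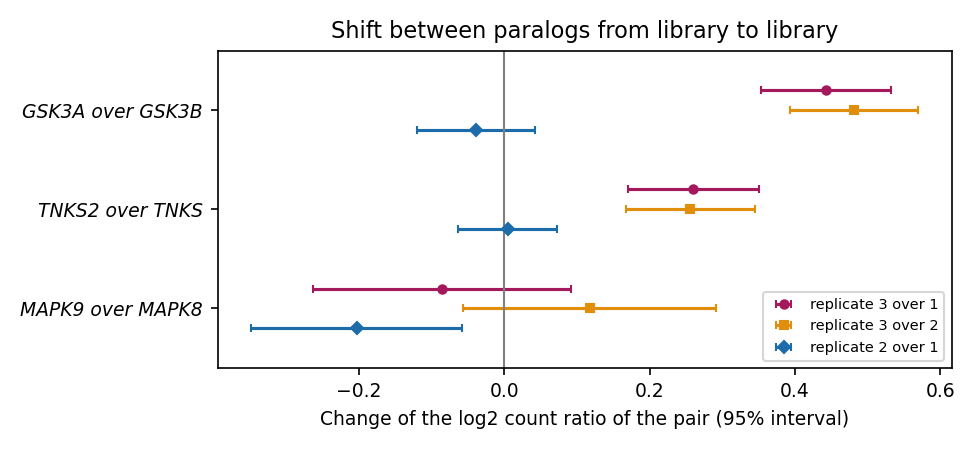
Change of the log2 ratio of a paralog pair's counts between 2 libraries, with 95% intervals of Fisher's exact test; values right of 0 mean that the first gene gained on the second. GSK3A over GSK3B and TNKS2 over TNKS lie right of 0 in both comparisons with replicate 3, at 0.44 and 0.48 and at 0.26, and MAPK9 over MAPK8 lies on both sides of 0.

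As a description of likeness over the 3 libraries, the Euclidean distance between log2 CPM profiles, each centred on its gene's mean, was smallest between GSK3B and SRC at 0.07 and largest between GSK3A and TNKS at 0.86. The profile of TNKS, which had the largest range, was matched most closely by those of ADAR, SHPK and PPM1B, at distances of 0.003, 0.010 and 0.010. With 3 libraries such matches are common, as 236 of 9824 genes with a symbol that averaged at least 1 CPM lay within 0.1 of it.

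The matched genes around GSK3 in the Wnt pathway were all present. AXIN2, AMER1, DVL1, FRAT1, FRAT2, PPP2CA and TCF7L1 were listed but had no match. All 15 matched of 22 listed members of the destruction complex and the signal relay were called above 1 CPM (edgeR, adjusted over all genes), as were 56.0% of all genes tested. Their median was 6.10 ± 0.03 on the log2 CPM scale (SD, n = 3). CTNNB1, which encodes beta-catenin, stood at 309 ± 58.3 CPM, and LEF1, a DNA-binding partner of beta-catenin, at 2.68 ± 1.52 CPM. In replicate 3, 12 of the 15 were lower and 2 higher than in replicate 1, and 12 were lower and 1 higher than in replicate 2. Of all genes tested, 26.0% were lower and 22.3% higher than in replicate 1, and 26.4% and 22.8% than in replicate 2. Among genes of at least SRC's depth these shares were 44.5% and 35.8%, and 45.5% and 35.5%. Where a difference of 1.5-fold was also required, 3 of the 15 were lower and 0 higher than in each of replicates 1 and 2. Of all genes, 10.6% were then lower and 6.83% higher than in replicate 1, and 10.8% and 7.54% than in replicate 2. LEF1 had the widest range, with 204, 174 and 40 counts in replicates 1, 2 and 3. Of 9 listed tankyrase substrates and partners, all 7 matched were above 1 CPM (56.0% of all genes). Of these, 5 were lower and 2 higher in replicate 3 than in replicate 1 (26.0% and 22.3% of all genes, 44.5% and 35.8% of those of at least SRC's depth). Against replicate 2, 5 were lower and 1 higher (26.4% and 22.8% of all genes, 45.5% and 35.5% at that depth). With 1.5-fold required, 2 were lower and 0 higher in either comparison, beside the same shares of all genes as for the Wnt list. AMOTL1, an angiomotin family member that tankyrase marks for degradation, had 1941, 2001 and 484 counts, the widest range of the list. BABAM1, which encodes a subunit of a DNA repair complex, stood at 131 ± 4.23 CPM and the Golgi protein gene BLZF1 at 7.37 ± 0.70 CPM.

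Of the PARP family and the genes of ADP-ribose turnover, 17 of 18 matched of 20 listed were above 1 CPM (56.0% of all genes). PARP10 was below at 0.55 ± 0.14 CPM (SD, n = 3). PARP10 was not distinguished from 1 CPM without replicate 1 (adjusted p = 0.142, edgeR quasi-likelihood) or with replicates 1 and 2 summed (adjusted p = 0.0608). OARD1, which encodes an enzyme that removes ADP-ribose, stood at 105 ± 13.2 CPM. PARP3 was above at 1.67 ± 0.53 CPM, and was likewise not distinguished once replicate 1 was left out (adjusted p = 0.189, edgeR). Against replicate 1, 8 of the 18 were lower and 5 higher in replicate 3, where 44.5% and 35.8% of genes of at least SRC's depth and 26.0% and 22.3% of all genes were. Against replicate 2, 6 were lower and 5 higher (45.5% and 35.5% at that depth, 26.4% and 22.8% of all genes). With 1.5-fold required, 4 were lower than in replicate 1 and 2 lower than in replicate 2 (10.6% and 10.8% of all genes). At that limit 0 were higher (6.83% and 7.54% of all genes). PARP11 had the widest range, with 460, 464 and 170 counts. The list median was 4.73 ± 0.07 log2 CPM.

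Genes of histamine and muscarinic signalling were at or under 1 CPM for the most part. Dimethindene also binds muscarinic receptors, which is why they were listed. Of 10 matched genes of 11 listed, 7 were below the level, as were 37.8% of all genes. Of the rest, 2 were not distinguished from it and 1 was above, as were 56.0% of all genes. The list median was −2.33 ± 0.37 log2 CPM (SD, n = 3). The histamine receptor gene HRH2 had 8, 15 and 5 counts and HRH4, not distinguished, 62, 29 and 31. HDC, which encodes the enzyme that makes histamine, had 2, 0 and 0 counts, where 3 counts, the limit that a count of 0 allows, correspond to 0.0546 CPM in replicate 2 and 0.0736 CPM in replicate 3. HNMT and AOC1, which encode enzymes that break histamine down, stood at 0.28 ± 0.07 and 0.11 ± 0.10 CPM. CHRM1, CHRM3 and CHRM5 were below as well, at 0.20 ± 0.24, 0.069 ± 0.067 and 0.081 ± 0.013 CPM, and CHRM2 was not distinguished at 0.76 ± 0.02 CPM. CHRM4 was above at 1.38 ± 0.02 CPM, a call lost with the DESeq2 Wald test (adjusted p = 0.0724), when replicate 1 or 2 was left out (adjusted p = 0.163 and 0.168, edgeR) and when these were summed (adjusted p = 0.152). Of the relay that HRH1 uses in other cells, 12 of 12 matched genes of 13 listed were above 1 CPM (56.0% of all genes). They ran from PLCB2 at 2.12 ± 0.56 CPM to PLCB3 at 217 ± 14.8 CPM. GNAQ, which encodes the Gq alpha subunit, had 3112, 3551 and 1050 counts and the widest range of that list. Of the 12, 8 were lower and 2 higher in replicate 3 than in replicate 1 (26.0% and 22.3% of all genes), and likewise than in replicate 2 (26.4% and 22.8%). Among genes of at least SRC's depth these shares were 44.5% and 35.8%, and 45.5% and 35.5%. With 1.5-fold required, 5 were lower than in replicate 1 and 4 lower than in replicate 2 (10.6% and 10.8% of all genes). In either comparison 1 was higher (6.83% and 7.54% of all genes).

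Of the SRC family, its regulators and substrates, 13 of 17 were above 1 CPM and 3 below (56.0% and 37.8% of all genes), with a list median of 5.62 ± 0.15 log2 CPM (SD, n = 3). CTTN, which encodes the SRC substrate cortactin, stood at 314 ± 23.9 CPM. The family members BLK and FRK and PAG1, the gene of an adaptor that recruits the SRC inhibitor CSK, were below, at 0.11 ± 0.04, 0.19 ± 0.10 and 0.17 ± 0.12 CPM. FGR, another family member, was above at 1.42 ± 0.27 CPM, a call lost with the DESeq2 Wald test (adjusted p = 0.0625), when replicate 1 or 2 was left out (adjusted p = 0.113 and 0.0545, edgeR) and when these were summed (adjusted p = 0.0762). In replicate 3, 8 of the 17 were lower and 1 higher than in replicate 1, and 7 lower and 3 higher with DESeq2 size factors. Of all genes, 26.0% and 22.3% were, and of those of at least SRC's depth 44.5% and 35.8%. Against replicate 2 the split was 7 lower and 1 higher, and 7 and 2 with DESeq2 size factors or total counts. The shares there were 26.4% and 22.8% of all genes, and 45.5% and 35.5% at that depth. With 1.5-fold required the split was 3 lower and 0 higher against either. Of all genes, 10.6% were then lower and 6.83% higher than in replicate 1, and 10.8% and 7.54% than in replicate 2. PTPN11, which encodes the phosphatase SHP2, had 4249, 4665 and 1459 counts, the widest range among genes of the list that averaged at least 1 CPM.

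Of the p38 cascade, all 10 matched of 14 listed genes were above 1 CPM (56.0% of all genes), with a list median of 5.35 ± 0.05 log2 CPM (SD, n = 3). MAPK11, MAP2K3, TAB1 and DUSP1 had no match. The kinase gene MAPKAPK2, a direct target of p38, stood at 86.5 ± 10.0 CPM and MKNK1, a kinase gene downstream of p38 and ERK, at 5.30 ± 0.66 CPM. Of the other p38 isoform genes, MAPK12 and MAPK13 stood at 34.8 ± 5.98 and 39.1 ± 1.84 CPM. Against replicate 1, 6 of 10 genes were lower and 1 higher in replicate 3 (26.0% and 22.3% of all genes, 44.5% and 35.8% of those of at least SRC's depth), and 3 lower and 1 higher with halved counts. Against replicate 2, 6 were lower and 2 higher (26.4% and 22.8% of all genes, 45.5% and 35.5% at that depth). With 1.5-fold required, 0 were lower and 0 higher in either comparison (10.6% and 6.83% of all genes for replicate 1, 10.8% and 7.54% for replicate 2). MAP2K6, which encodes a kinase that activates p38, had the widest range, with 590, 579 and 309 counts. Of the JNK cascade, all 10 matched of 13 listed genes were above 1 CPM as well (56.0% of all genes), with a list median of 4.52 ± 0.20 log2 CPM. MAP2K7, MAPK8IP3 and JUN had no match. MAP2K4, which encodes a kinase that activates JNK, stood at 94.8 ± 3.17 CPM. MAPK8IP2, a scaffold gene, was at 2.88 ± 1.40 CPM and had 201, 193 and 52 counts. MAPK10, the remaining JNK gene, stood at 6.22 ± 1.60 CPM and was higher in replicate 3, with 275, 293 and 329 counts. Its log2 ratio of replicate 3 over 1 was 0.62, against −0.46 and −0.55 for MAPK8 and MAPK9. Of the 10 JNK cascade genes, 5 were lower and 1 higher in replicate 3 than in replicate 1 (26.0% and 22.3% of all genes). The 5 lower are near the 44.5% lower among genes of at least SRC's depth. Against replicate 2, 7 were lower and 2 higher (26.4% and 22.8% of all genes, 45.5% and 35.5% at that depth). With 1.5-fold required, 3 and 4 were lower than in replicates 1 and 2 (10.6% and 10.8% of all genes). In either comparison 1 was higher (6.83% and 7.54% of all genes).

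**Figure D4:**
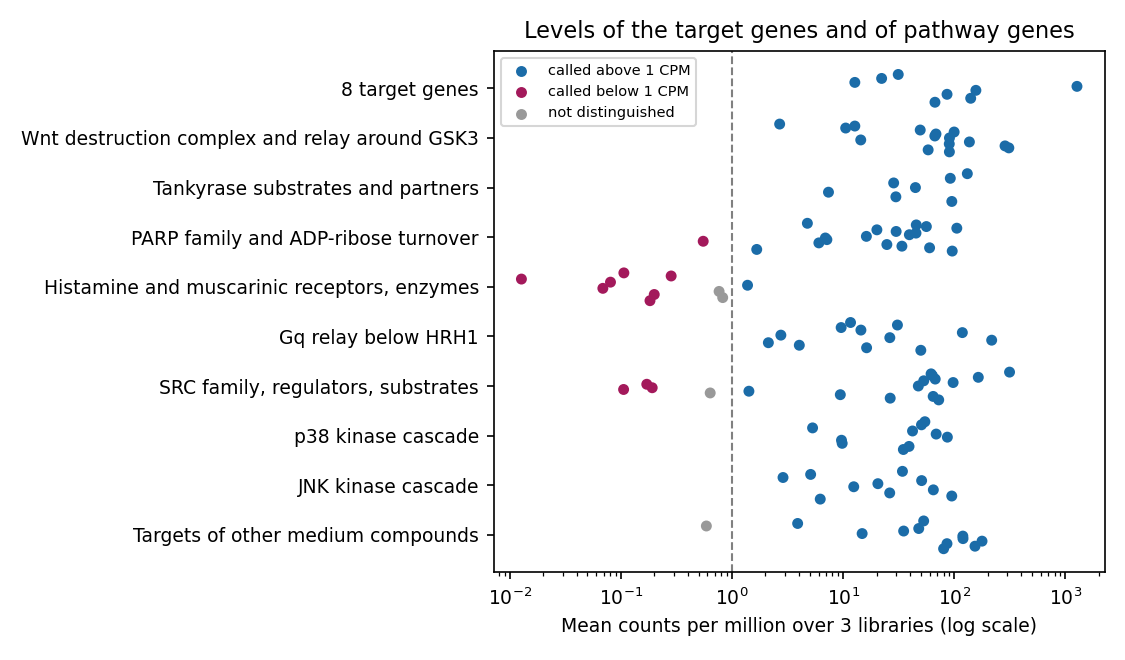
Mean level of each target gene and each matched pathway gene over the 3 libraries, in CPM on a log axis and uncorrected for length; colour gives the call against 1 CPM (dashed line). The genes of histamine and muscarinic signalling lie mostly left of the line, with 7 of 10 called below, and all 8 target genes lie right of it.

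Targets of other compounds used in pluripotency media were present too, with 11 of 12 above 1 CPM (56.0% of all genes) and a median of 6.01 ± 0.26 log2 CPM (SD, n = 3). They include the MEK kinase genes MAP2K1 and MAP2K2 at 80.1 ± 3.93 and 153 ± 19.0 CPM. ACVR1C, at 0.59 ± 0.44 CPM, was not distinguished from 1 CPM with 3 libraries, and was below it without replicate 1 (adjusted p = 0.0248, edgeR quasi-likelihood) and with replicates 1 and 2 summed (adjusted p = 0.0296). LIFR, which encodes a receptor subunit for LIF, had 243, 337 and 37 counts, the widest range among genes of the list that averaged at least 1 CPM. In replicate 3, 9 of the 12 were lower and 3 higher than in replicate 1 (26.0% and 22.3% of all genes), and 8 lower and 2 higher than in replicate 2 (26.4% and 22.8%). Among genes of at least SRC's depth these shares were 44.5% and 35.8%, and 45.5% and 35.5%. With 1.5-fold required, 5 were lower and 0 higher in either comparison (10.6% and 6.83% of all genes for replicate 1, 10.8% and 7.54% for replicate 2).

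**Figure D5:**
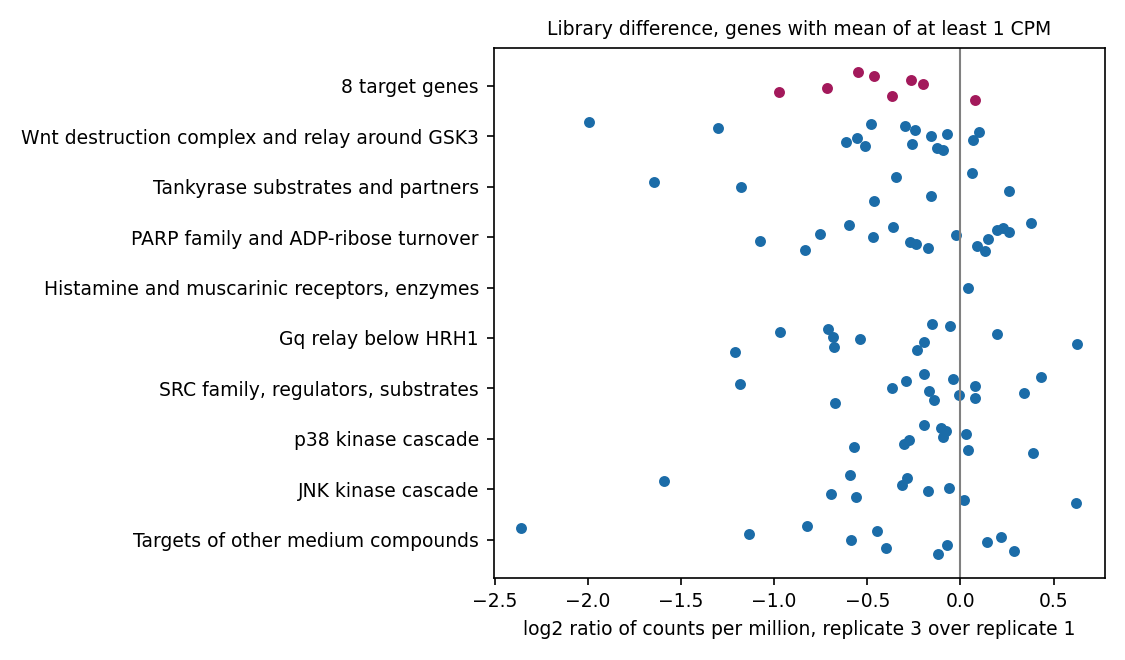
Log2 ratio of CPM of replicate 3 over replicate 1 for the target genes (top row) and pathway genes, for genes that averaged at least 1 CPM. The 8 target genes lie between −0.98 and 0.08, and the pathway genes spread on both sides of 0, most of them to the left.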

How the data were processed

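RNA was sequenced from 3 libraries of 1 group. The submitters' processing notes name the tools featureCounts 1.5.2, STAR 2.5.3a and Trim Galore 0.4.0. The sources used here do not give the genome build, annotation, strand setting, handling of multi-mapped reads or whether reads or pairs were counted, so genes that overlap or have near-identical copies are uncertain. The authors deposited raw counts, as whole numbers per Ensembl gene ID without normalization. Of 30811 genes, 12660 had a symbol in the name table. No transcript lengths or sequences were used.

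Counts were scaled with TMM factors (edgeR 4.0.16, R 4.3.3). All 23432 genes that had any count were tested against 1 CPM by edgeR's quasi-likelihood F statistic in a model holding only an intercept, computed from the deviances of glmQLFit. Libraries were compared by exact conditional binomial tests. Adjustment was by Benjamini-Hochberg, with calls under 0.05. List medians used log2 CPM with a prior count of 0.5. On simulated counts for 23432 genes, the level test called 87% of genes set at 0.5 CPM and 97.5% of genes at 2 CPM (200 genes each). The library test called 87.5% of genes changed 1.25-fold, and made no call for 100% of genes left unchanged (200 genes each). Counts for the library test were simulated with Poisson counting error only, without variation between libraries, so its rates hold for counting error alone. The DESeq2 1.42.0 alternative used a Wald test. Figures used matplotlib 3.10.9.

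The members, pathway lists and tests were chosen with earlier results of these data known, and the depth class after seeing the counts. Named pathway genes are those with the highest and lowest mean CPM, those below 1 CPM and that with the widest log2 range in each list. The widest range was taken among genes that averaged at least 1 CPM. HRH4, CHRM2, PARP3, FGR, MAPK10, MAPK12, MAPK13, MAP2K1 and MAP2K2 were named after their values were seen. Results for a few single genes of the lists are not reported here.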

Additional observations from a re-analysis of the deposited data

How the results depend on the processing

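The count of 8 target genes above 1 CPM was the same with DESeq2 size factors, the DESeq2 Wald test, filterByExpr genes, a level of 5 CPM, without each replicate, and with replicates 1 and 2 summed. Fits on 2 libraries take the spread of a gene mostly from the trend. The 1 gene of histamine and muscarinic signalling above 1 CPM, CHRM4, became 0 with the DESeq2 Wald test, at 5 CPM and with replicates 1 and 2 summed, and ranged from 0 to 1 without 1 replicate. The counts above 1 CPM of the other 8 pathway lists stayed within 1.5 times. Their counts of genes lower in replicate 3 did not, and with 1.5-fold required they came to between 0 and 5 against replicates 1 and 2. With halved counts, those higher than in replicate 1 became 0 for the Wnt and tankyrase lists, 3 for the PARP list and 1 for the Gq list. Of the 7 target genes lower in replicate 3, 2 and 3 remained against replicates 1 and 2 when a 1.5-fold difference was required. The 0 genes called higher in replicate 3 than in replicate 1 became 1 with DESeq2 size factors and with total counts. The 2 genes higher in replicate 2 than in replicate 1 became 1 with total counts, and 0 with halved counts or 1.5-fold required. The cause was not tested for calls that changed, other than where fewer counts or a stricter rule define the alternative. Of the values of single target genes and paralog pairs, 16 lost and 2 gained a call over all alternatives, and no direction of a called ratio was reversed. No paired analysis was possible because only 1 group exists. Ratios of paralogs per coding length were not run, as no lengths were at hand. Depth limits SRC most among the target genes.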
